A study of Mus musculus with 16 samples.

Results

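The module described here holds 37 genes for the tricarboxylic acid (TCA) cycle, the malate-aspartate shuttle, ketone body use and the breakdown of branched-chain amino acids, out of 23946 genes in the expression table. The members were chosen by name for the step they encode, with earlier results of these data known. All 37 were in the table, and all 37 reached at least 1 FPKM (fragments per kilobase of transcript, scaled to the mapped library size) in at least 4 of the 16 libraries, the level filter that left 12100 genes for testing. By role they comprise 13 genes of the TCA cycle, 3 of the malate-aspartate shuttle, 3 of ketone use, 5 for the entry of branched-chain amino acids, 4 for leucine, 6 for valine and isoleucine and 3 for propionyl-CoA. Mdh2, which also serves the shuttle, is counted with the TCA cycle.

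The TCA cycle in the mitochondrial matrix oxidises acetyl-CoA and hands electrons to the respiratory chain, and the malate-aspartate shuttle carries reducing equivalents from the cytosol into the same compartment. Heart muscle takes up ketone bodies made by the liver and converts them to acetyl-CoA, with succinyl-CoA of the TCA cycle as the CoA donor. Leucine, isoleucine and valine lose their amino group to a mitochondrial aminotransferase, their ketoacids are decarboxylated by the branched-chain ketoacid dehydrogenase complex, and separate chains of enzymes then deliver acetyl-CoA, acetoacetate and succinyl-CoA.

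PolyA RNA came from the free wall of either ventricle of adult male mice, 10 to 13 weeks old, of the inbred strain FVB. In the banded groups the pulmonary artery had been narrowed, which loads the right ventricle with pressure and was used to bring about right ventricular failure, while the sham groups had a mock operation; the labels name the operated group PS, which was read as banded because the protocol names no other operation. The 4 groups of 4 libraries were the banded right ventricle and the sham right ventricle, and the banded left ventricle and the sham left ventricle, a chamber that the band does not load directly. The labels name no allele, drug or other treatment, and they do not say whether libraries with equal numbers came from 1 mouse, so p-values cover only the spread between samples, some of which may be technical. Values per library are given below in the order PS_9552, PS_9553, PS_9561 and PS_9564 for banded libraries and 1 to 4 for sham libraries.

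The libraries differed in ways that touch every value of the module. The precursor of ribosomal RNA, Rn45s, had a listed value of 0 in 5 banded libraries (right PS_9561 and PS_9564, left PS_9552, PS_9553 and PS_9561) and in no sham library. These 5 had scale factors of 1.22 to 1.28, against 0.840 to 1.02 in the other 11, where the factor is a library's median ratio, over 8211 genes, to their geometric mean. The FPKM give no depth; estimated from their smallest steps, on the assumption of 200 nt fragments, it was 2.35e+06 to 5.66e+06 fragments in banded right ventricular libraries, against 339277 to 1.38e+06 in sham ones. A member of median length at 10 FPKM then rests on 55.2 to 133 fragments in a banded and 7.96 to 32.4 fragments in a sham right ventricular library. The 10 cardiomyocyte markers were detected in every group and summed to 20658 to 29440 FPKM in banded and 30624 to 33953 FPKM in sham right ventricles, and 2 of them fell; the part of cardiomyocyte content in the results was not tested. Endothelial markers summed to 404 to 580 FPKM in banded and 291 to 387 FPKM in sham right ventricles, and mural cell markers to 251 to 352 and 199 to 215 FPKM, with 1 of 8 and 2 of 7 higher in the banded group. Atrial markers summed to 1612 to 2796 FPKM in banded and 69.1 to 369 FPKM in sham right ventricles, with 1 of 6 higher and 2 lower in the banded group. Fibroblast markers summed to 734 to 1186 FPKM in banded and 801 to 1148 FPKM in sham right ventricles (2 of 8 rose), erythroid markers to 213 to 522 and 373 to 549 FPKM (1 of 4 tested fell), macrophage markers to 83.5 to 136 and 71.6 to 107 FPKM (0 of 7 called) and mesothelial markers to 3.89 to 6.03 and 5.55 to 18.4 FPKM (2 of 3 tested fell). Pancreatic islet markers, which heart muscle lacks, summed to 63.0 to 154 FPKM in banded and 635 to 2139 FPKM in sham right ventricles, with 4 of 5 tested lower in the banded group and Ppy at 0 in all banded right ventricular libraries. Because depth and the islet signal differ between the right ventricular groups, their part in the results below cannot be told apart from that of banding. Left ventricular libraries held an estimated 3.56e+06 to 8.92e+06 fragments in banded and 1.76e+06 to 4.38e+06 in sham mice, which overlap. In whole tissue, fewer cells of a type and less RNA per cell cannot be told apart either.

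A member is called higher or lower here where its limma p-value, after Benjamini-Hochberg adjustment over the 12100 genes, was below 0.05 in the same direction both on the values as deposited and on values divided by the scale factors (rescaled). Differences are on the log2(FPKM + 1) scale, banded minus sham, as deposited unless stated. In the right ventricle 10 of the 37 members fell, where 4.93% of all tested genes fell, and 1 rose, where 10.5% of all tested genes rose. Falls were found at 3 of 13 TCA enzymes (Idh2, Suclg1 and Mdh2), 1 of 3 shuttle enzymes (Got2), 3 of 5 entry enzymes for branched-chain amino acids (Bcat2, Bckdha and Bckdhb), 2 of 4 leucine enzymes (Ivd and Mccc2), 0 of 6 valine and isoleucine enzymes and 1 of 3 propionyl-CoA enzymes (Pccb). The rise was at 1 of 3 ketone enzymes, Oxct1. As deposited, all banded libraries lay below all sham libraries at 10 members (5.07% of all tested genes) and above them at 2 (12.6%). The members' median difference was -0.19 as deposited and -0.38 rescaled, against 0.26 and 0.11 for all tested genes. On rescaled values alone 18 members were lower (9.10% of all tested genes) and 1 higher (10.8%). When every library was instead scaled to the same sum (TPM scaling), which put the median of all genes at 0.65, 0 members were lower (1.17% of all tested genes) and 8 were higher (47.0%), Oxct1 among them. The members' median lay below that of all genes by 0.45 as deposited, 0.49 rescaled, 0.35 with TPM scaling and 0.11 with quantile normalization. Among libraries with a value for Rn45s, 2 banded and 4 sham right ventricular ones, 6 members fell (Idh2, Suclg1, Bcat2, Bckdha, Ivd and Mccc2; 1.85% of all tested genes) and 0 rose (1.40%). Fitted on the 8 right ventricular libraries alone, Mdh2, Got2 and Bckdhb lost their calls (limma adjusted p of 0.05005 to 0.0908), and with library weights Mdh2, Got2 and Ivd did (0.0511 to 0.0905).

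Levels in the sham right ventricle spanned a wide range, on the FPKM scale, which is per transcript length. They ran from 10.5 ± 2.37 FPKM for Ppm1k to 1251 ± 80.7 FPKM for Idh2 (SD, n = 4), with Mdh2 at 1237 ± 98.7 FPKM within the spread of Idh2. The next were Mdh1 at 554 ± 44.9 FPKM and Idh3g at 495 ± 41.3 FPKM.

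**Figure D1:**
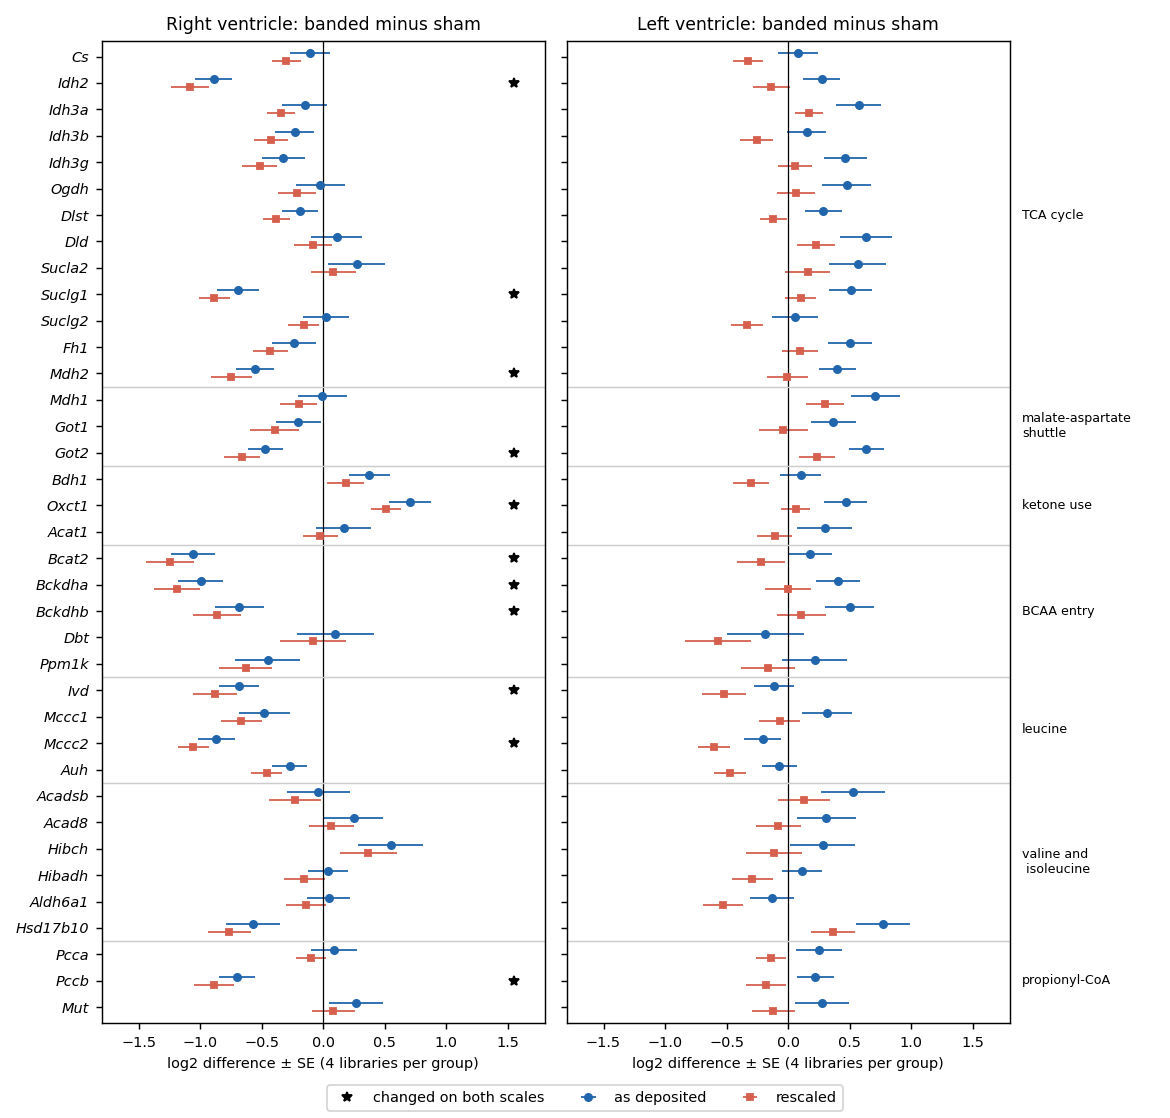
Log2 difference of log2(FPKM + 1), banded minus sham, for the 37 members grouped by role, in the right (left panel) and left ventricle (right panel). Circles are values as deposited and squares rescaled values, bars are the limma standard error, and stars mark the 11 members called on both scales in the right ventricle, 10 below and 1 above 0; no member is starred in the left ventricle.

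Idh2, the mitochondrial NADP-dependent isocitrate dehydrogenase, showed the largest fall of the TCA enzymes. It stood at 559, 632, 758 and 768 FPKM in the banded and 1343, 1235, 1276 and 1150.1 FPKM in the sham right ventricles. Every banded library lay below every sham library, and the difference was -0.89 ± 0.15 (SE, n = 4 per group; limma adjusted p = 0.001303; -1.08 rescaled). Suclg1, the alpha subunit shared by both forms of succinyl-CoA synthetase, stood at 208, 190.1, 307 and 252 FPKM in banded and 452, 327, 349.8 and 408 FPKM in sham libraries. Here too the groups did not overlap, and the difference was -0.69 ± 0.17 (adjusted p = 0.0123). Mdh2, the mitochondrial malate dehydrogenase, stood at 879.9, 767, 916 and 804 FPKM in banded and 1305, 1265, 1091 and 1288 FPKM in sham libraries, again without overlap (-0.55 ± 0.15, adjusted p = 0.0193).

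The subunits that work beside these enzymes did not pass on both scales. Cs, citrate synthase, which opens the cycle, stood at 331, 362, 452 and 524 FPKM in banded and 409, 469.7, 409 and 487 FPKM in sham right ventricles. These groups overlapped, with a difference of -0.11 ± 0.16 (adjusted p = 0.665). Ogdh, the first component of the 2-oxoglutarate dehydrogenase complex, stood at 222, 258, 299.9 and 469 FPKM in banded and 299, 323, 274 and 326 FPKM in sham libraries, with banded libraries PS_9552 and PS_9553 below and PS_9564 above the sham range. Its difference was -0.02 ± 0.20 (adjusted p = 0.945). The 3 subunits of the NAD-dependent isocitrate dehydrogenase, Idh3a, Idh3b and Idh3g, had differences of -0.15, -0.23 and -0.33, and with Dlst (-0.19), the second component of the 2-oxoglutarate complex, and Fh1 (-0.24), fumarase, they were lower on rescaled values only. Sucla2 and Suclg2, the beta subunits that pair with Suclg1 and set whether ATP or GTP is made, had differences of 0.27 (adjusted p = 0.419) and 0.02 (adjusted p = 0.945), and Dld, the third component shared by several dehydrogenase complexes, had 0.11 (adjusted p = 0.747).

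In the malate-aspartate shuttle the mitochondrial transaminase fell, as did Mdh2, counted above with the TCA cycle, and the cytosolic enzymes were not called. Got2, the mitochondrial aspartate aminotransferase, stood at 101, 95.2, 113 and 114 FPKM in banded and 139, 167, 134 and 148 FPKM in sham right ventricles. The groups did not overlap, and the difference was -0.47 ± 0.14 (adjusted p = 0.03297). Its call was lost when right ventricular banded library PS_9552, PS_9553 or PS_9561 or sham library 2 or 4 was left out, with adjusted p of at most 0.0810, and its difference was 0.02 with TPM scaling. Got1 and Mdh1, the cytosolic partners, had differences of -0.20 (adjusted p = 0.446) and -0.01 (adjusted p = 0.981).

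Of the ketone enzymes, Oxct1 rose. Oxct1 encodes succinyl-CoA:3-ketoacid CoA transferase, the step that activates acetoacetate and that the liver lacks. It stood at 218, 224, 298 and 309 FPKM in banded and 156, 160.2, 145 and 174 FPKM in sham right ventricles. All banded libraries lay above all sham libraries on both scales, and the difference was 0.70 ± 0.17 (adjusted p = 0.0114), or 0.51 ± 0.12 rescaled (adjusted p = 0.00805). With a correction of each library for transcript length and GC content the difference was 0.23 (adjusted p = 0.211), with library weights 0.62 (0.0608) and among libraries with a value for Rn45s 0.48 (0.199), so that the call was lost in each. Bdh1, the mitochondrial 3-hydroxybutyrate dehydrogenase that precedes it, stood at 90.7, 97.6, 93.9 and 112 FPKM in banded and 87.2, 63.03, 67.04 and 88.8 FPKM in sham libraries. As deposited these groups did not overlap, but Bdh1 did not pass the test (0.37 ± 0.17, adjusted p = 0.124), and rescaled values overlapped. Acat1, the acetoacetyl-CoA thiolase that ends the path and also serves isoleucine, had a difference of 0.17 ± 0.22 (adjusted p = 0.622).

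The entry enzymes of branched-chain amino acid breakdown held the 2 largest falls of the module as deposited, at Bcat2 and Bckdha. Bcat2, the mitochondrial branched-chain aminotransferase, stood at 50.3, 58.9, 62.3 and 59.6 FPKM in banded and 116, 128, 140.2 and 102 FPKM in sham right ventricles. The highest banded library was well below the lowest sham library, and the difference was -1.06 ± 0.18 (adjusted p = 0.00123; -1.25 rescaled). Bckdha, the alpha subunit of the decarboxylase component of the ketoacid dehydrogenase, stood at 102, 126, 155 and 132 FPKM in banded and 253, 232, 300.1 and 239 FPKM in sham libraries, without overlap (-0.997 ± 0.18, adjusted p = 0.00212). Bckdhb, the beta subunit of the same component, stood at 17.4, 15.4, 19.97 and 14.1 FPKM in banded and 34.6, 17.8, 31.1 and 28.4 FPKM in sham libraries. Sham library 2 lay inside the banded range, the difference was -0.68 ± 0.20 (adjusted p = 0.0288), and the call was lost without banded library PS_9553 or PS_9564 or sham library 1 or 3, with adjusted p of at most 0.0851.

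The remaining entry genes were not called. Dbt, the transacylase core of the complex, ranged from 9.41 to 22.2 FPKM in banded and 5.65 to 20.1 FPKM in sham right ventricles (0.10 ± 0.31, adjusted p = 0.851). Ppm1k, the phosphatase that activates the complex, stood at 4.34, 6.91, 6.67 and 13.6 FPKM in banded and 13.1, 11.9, 9.27 and 7.91 FPKM in sham libraries. Banded library PS_9564 was the highest of all 8 and the other banded libraries were the lowest, with a difference of -0.45 ± 0.26 (adjusted p = 0.232). Bckdk, the kinase that inactivates the complex and was not a member, stood at 15.9, 19.7, 25.01 and 30.9 FPKM in banded and 32.9, 37.1, 37.5 and 36.3 FPKM in sham libraries and fell without overlap (-0.67 ± 0.19, adjusted p = 0.0247).

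**Figure D2:**
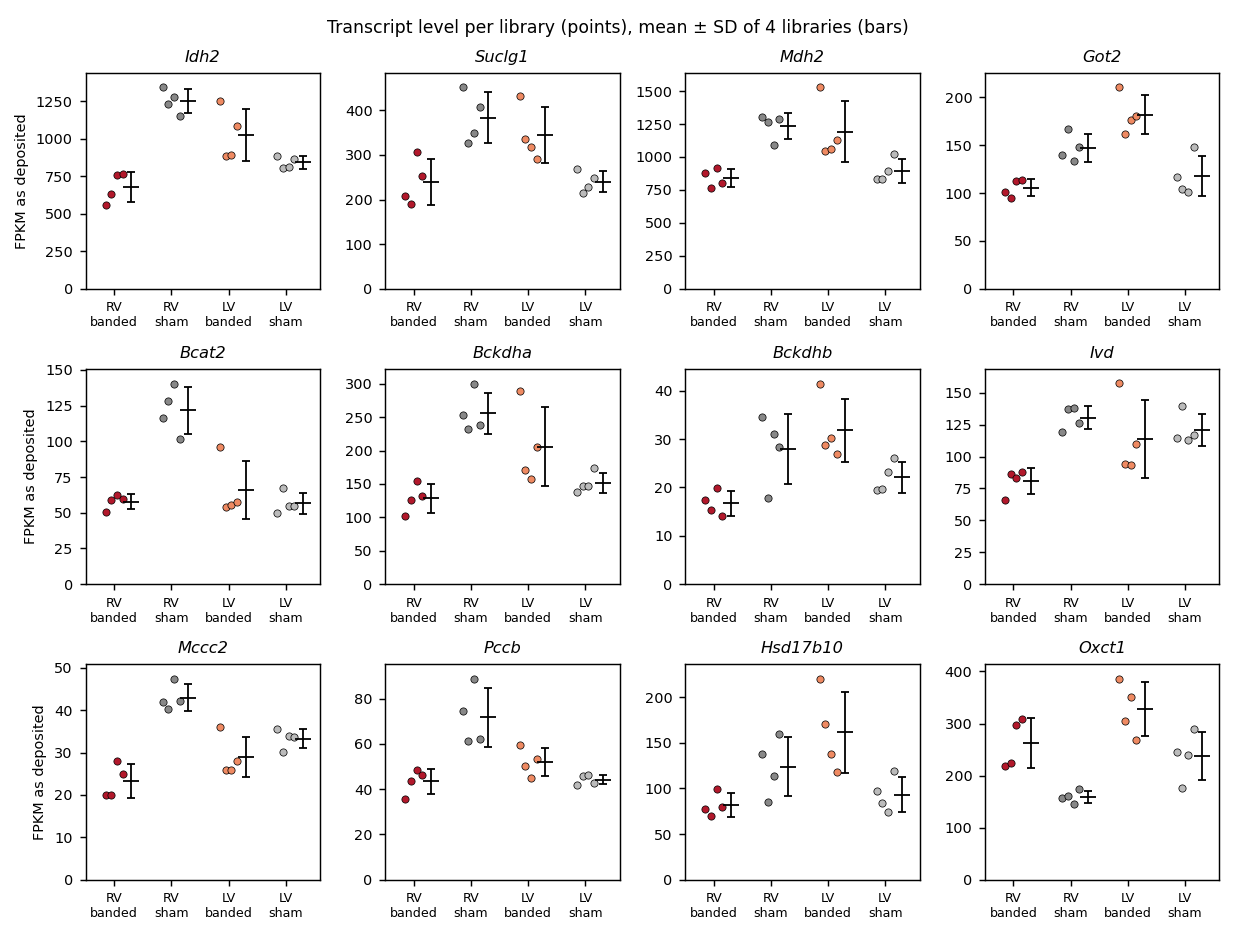
FPKM as deposited in each library (points) with the mean and SD of 4 libraries (bars) for the 11 members called in the right ventricle and for Hsd17b10, in banded and sham right and left ventricles. In 9 of the 10 members that fell the banded right ventricular libraries lie below all sham right ventricular libraries, the exception being Bckdhb, and in Oxct1 they lie above.

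Downstream of the ketoacid dehydrogenase, falls were found on the leucine branch and at 1 subunit of propionyl-CoA carboxylase. Ivd, isovaleryl-CoA dehydrogenase of the leucine branch, stood at 66.3, 86.4, 82.9 and 88.03 FPKM in banded and 119, 137, 138 and 127 FPKM in sham right ventricles, without overlap (-0.69 ± 0.16, adjusted p = 0.00984). Mccc2, the beta subunit of the biotin enzyme methylcrotonyl-CoA carboxylase, stood at 20.01, 20.1, 28.1 and 24.9 FPKM in banded and 41.9, 40.3, 47.5 and 42.2 FPKM in sham libraries. Its difference was -0.87 ± 0.15 (adjusted p = 0.00146), also without overlap. Its alpha partner Mccc1 had a difference of -0.48 ± 0.21 (adjusted p = 0.1096) and Auh, the hydratase that follows, -0.27 ± 0.14 (adjusted p = 0.185), and both were lower on rescaled values only. Pccb, the beta subunit of propionyl-CoA carboxylase, where the valine and isoleucine branches meet, stood at 35.6, 43.8, 48.3 and 46.4 FPKM in banded and 74.5, 61.2, 88.9 and 62.4 FPKM in sham libraries. All banded libraries lay below all sham libraries (-0.70 ± 0.15, adjusted p = 0.00518), while its alpha partner Pcca (0.09, adjusted p = 0.769) and Mut, methylmalonyl-CoA mutase (0.27, adjusted p = 0.408), were not called.

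None of the 6 enzymes of the valine and isoleucine branches was called in the right ventricle. Their differences ran from -0.57 at Hsd17b10 to 0.55 at Hibch, the hydrolase of the valine branch. Hsd17b10, the dehydrogenase of the isoleucine branch that is also a subunit of mitochondrial RNase P, stood at 77.2, 69.4, 99.7 and 80.2 FPKM in banded and 138, 85.00, 114 and 159 FPKM in sham libraries. Sham library 2 lay inside the banded range, and the gene passed on rescaled values only (adjusted p = 0.0785 as deposited and 0.00757 rescaled). Acadsb and Acad8, the acyl-CoA dehydrogenases of isoleucine and valine, had differences of -0.04 and 0.25, and Hibadh and Aldh6a1, the last dehydrogenases of the valine branch, 0.04 and 0.04.

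Other genes of the same pathways were counted from a list of 38, of which 36 passed the level filter (Bdh2 and Bcat1 did not). In the right ventricle 9 of the 36 fell (4.93% of all tested genes) and 0 rose (10.5%) by limma, and 0 were higher on both scales at an unadjusted p below 0.05 (20.3%), where 10 were lower (8.43%). The falls included those of the succinate dehydrogenase subunits Sdhb (-0.61), Sdhc (-0.79) and Sdhd (-0.50), which oxidise succinate within the cycle, pyruvate carboxylase Pcx (-0.70), which refills it, and the oxoglutarate carrier Slc25a11 (-0.61), which serves the shuttle. On the amino acid side Bckdk, Hadha (-0.71), a subunit of the trifunctional protein of fatty acid oxidation, and Mcee (-0.46), methylmalonyl-CoA epimerase, fell. Slc16a1, a carrier of ketone bodies and lactate, had a difference of 0.45 (adjusted p = 0.149).

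Ratios of 2 members within a library do not depend on the scale factor of that library, and 12 were computed without a test. Oxct1 over Cs was 0.589 to 0.659 in banded and 0.341 to 0.383 in sham right ventricles. Bcat2 over Cs was 0.114 to 0.163 in banded and 0.209 to 0.343 in sham libraries, and Idh2 over Cs 1.47 to 1.75 in banded and 2.36 to 3.29 in sham libraries. Oxct1, which rose, was also set over Bcat2, which had the largest fall as deposited. Oxct1 over Bcat2 was 3.81 to 5.18 in banded and 1.03 to 1.71 in sham right ventricles. Within succinyl-CoA synthetase, Sucla2 over Suclg1 was 0.317 to 0.387 in banded and 0.1501 to 0.212 in sham right ventricles. None of these 5 ratios overlapped between the right ventricular groups. Each holds a member called in the same libraries, so their separation is no further evidence beside those calls. The share of other gene pairs that separate is not given. Bckdha over Cs, Idh2 over Idh3a and Bckdha over Dbt, which also hold called members, did not overlap either. Mdh1 over Mdh2, cytosolic over mitochondrial malate dehydrogenase, overlapped, at 0.541 to 0.782 in banded and 0.395 to 0.566 in sham libraries. Bdh1 over Cs, Got1 over Got2 and Sucla2 over Suclg2 overlapped too. In the left ventricle Oxct1 over Bcat2 was 4.01 to 6.34 in banded and 2.63 to 5.303 in sham libraries, and Bcat2 over Cs 0.105 to 0.152 in banded and 0.101 to 0.138 in sham libraries. The sham right ventricle thus stood apart from the other 3 groups in both of these Bcat2 ratios. In both, the banded right ventricular libraries overlapped the left ventricular ones. In Sucla2 over Suclg1 the sham right ventricle stood apart too, with 0.315 to 0.477 in banded and 0.282 to 0.455 in sham left ventricles. It did not in Oxct1 over Cs, at 0.363 to 0.587 in sham left ventricles. Nor did it in Idh2 over Cs, at 1.70 to 2.43 in banded left ventricles.

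**Figure D3:**
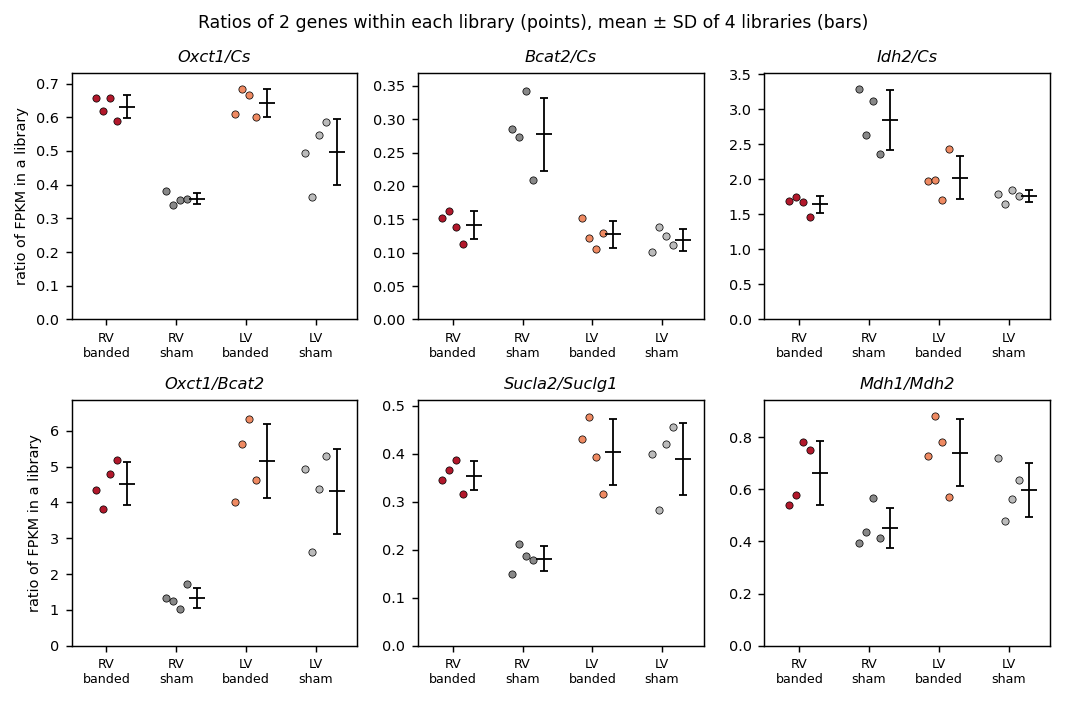
Ratio of the FPKM of 2 members within each library (points) with the mean and SD of 4 libraries (bars), by group. In Oxct1/Bcat2 the banded right ventricular libraries lie at 3.81 to 5.18 and the sham right ventricular libraries at 1.03 to 1.71, below every library of the other groups.

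In the left ventricle 0 of the 37 members changed on both scales, against 2.44% of all tested genes that rose and 0.298% that fell, and 0 passed on both scales in either direction at an unadjusted limma p below 0.05 (10.6% of all tested genes higher and 1.05% lower). As deposited, the libraries of the groups did not overlap at 5 members that were higher (22.2% of all tested genes) and 0 that were lower (0.942%). As deposited, with a median of all genes of 0.33, 4 members were higher, at Idh3a (0.57), Mdh1 (0.71), Got2 (0.64) and Hsd17b10 (0.77), and 0 were lower, where 14.3% of all tested genes were higher and 0.322% lower. Rescaled, with a median of 0.01, 0 were higher (2.44% of all tested genes) and 1 was lower (1.57%), Mccc2 at -0.60. With quantile normalization some members, Cs, Idh3b and Bdh1 among them, were called lower, so the absence of calls in the left ventricle depended on the scaling. The count is listed under the processing, without a share of all tested genes. With that normalization the members' median was -0.22, against -0.02 for all genes. Of the marker lists, cardiomyocyte markers summed to 42460 to 53441 FPKM in banded and 21425 to 33622 FPKM in sham left ventricles (3 of 10 rose), fibroblast markers to 955 to 1515 and 555 to 799 FPKM (0 of 8 called), macrophage markers to 130.2 to 196 and 60.2 to 99.2 FPKM (1 of 7 rose) and erythroid markers to 505 to 1198 and 132 to 257 FPKM (1 of 4 tested rose). Islet markers summed to 24.1 to 58.2 FPKM in banded and 86.6 to 2092 FPKM in sham left ventricles, with 1 of 5 tested lower. None of these sums overlapped between the left ventricular groups, and their part in the results, like that of depth, was not tested. Idh2 stood at 1249, 884, 892 and 1083 FPKM in banded and 888, 805, 812 and 863 FPKM in sham left ventricles (0.27 ± 0.15, adjusted p = 0.237). Bcat2 stood at 96.3, 54.1, 55.3 and 57.8 FPKM in banded and 49.8, 67.3, 54.8 and 54.5 FPKM in sham left ventricles, where only banded library PS_9552 stood above the sham range (0.18 ± 0.18, adjusted p = 0.525). Oxct1 stood at 386, 305, 351 and 268 FPKM in banded and 246, 177, 240.1 and 289 FPKM in sham left ventricles, and these overlapped (0.47 ± 0.17, adjusted p = 0.0776). The pathway genes beside the members gave 0 called of 36 by limma, with 4 higher and 0 lower on both scales at an unadjusted p below 0.05 (10.6% and 1.05% of all tested genes).

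The effect of banding was lower in the right than in the left ventricle at 6 of 37 members, where 3.45% of all tested genes were lower, and higher at 0, where 0.529% were higher (limma; 15 lower and 0 higher at an unadjusted p below 0.05, against 10.4% and 3.86% of all tested genes). These were tested as the right effect minus the left effect. At Bckdha the difference of effects was -1.40 ± 0.26 (adjusted p = 0.00343), at Hsd17b10 -1.34 ± 0.31 (0.0151) and at Bcat2 -1.24 ± 0.25 (0.00632). At Suclg1 it was -1.20 ± 0.24 (0.00621), at Idh2 -1.16 ± 0.21 (0.00352) and at Got2 -1.11 ± 0.20 (0.00338). Left ventricular values for Hsd17b10 were 219, 170.1, 138 and 118 FPKM in banded and 96.9, 83.5, 73.9 and 119 FPKM in sham libraries, so that the difference was above 0 in the left and below 0 in the right ventricle as deposited. Those for Bckdha were 289.8, 171, 157 and 206 FPKM in banded and 138, 147, 147 and 174 FPKM in sham libraries, and those for Suclg1 433, 337, 318 and 290.3 FPKM in banded and 269, 215, 228 and 249 FPKM in sham libraries. Got2 stood at 211, 161, 176 and 180.1 FPKM in banded and 116, 104, 102 and 148 FPKM in sham left ventricles. Banded left ventricular libraries lay above all sham ones at Suclg1 and Got2, and those of Bckdha overlapped. Of the pathway genes 6 of 36 were lower (Sdhb, Me3, Slc25a11, Bckdk and Hadha among them) and 0 higher. For Oxct1 the difference of effects was 0.24 ± 0.24 (adjusted p = 0.687), so its rise was not shown to differ between the ventricles. With TPM scaling 0 members were lower (0.231% of all tested genes), and with quantile normalization 2, Bdh1 and Oxct1, were higher (2.11%). All 6 calls were lost under both. With the correction for transcript length and GC content 4 were lower (Idh3a, Suclg1, Got2 and Bckdha; 2.71% of 12013 genes) and 0 higher (1.32%), and the calls of Idh2 (-0.59, adjusted p = 0.0865), Bcat2 (-0.80, 0.0853) and Hsd17b10 (-0.66, 0.0777) were lost. Without 1 library at a time 5 to 7 members were lower, and Bcat2 lost its call in 10 of the 16 omissions.

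**Figure D4:**
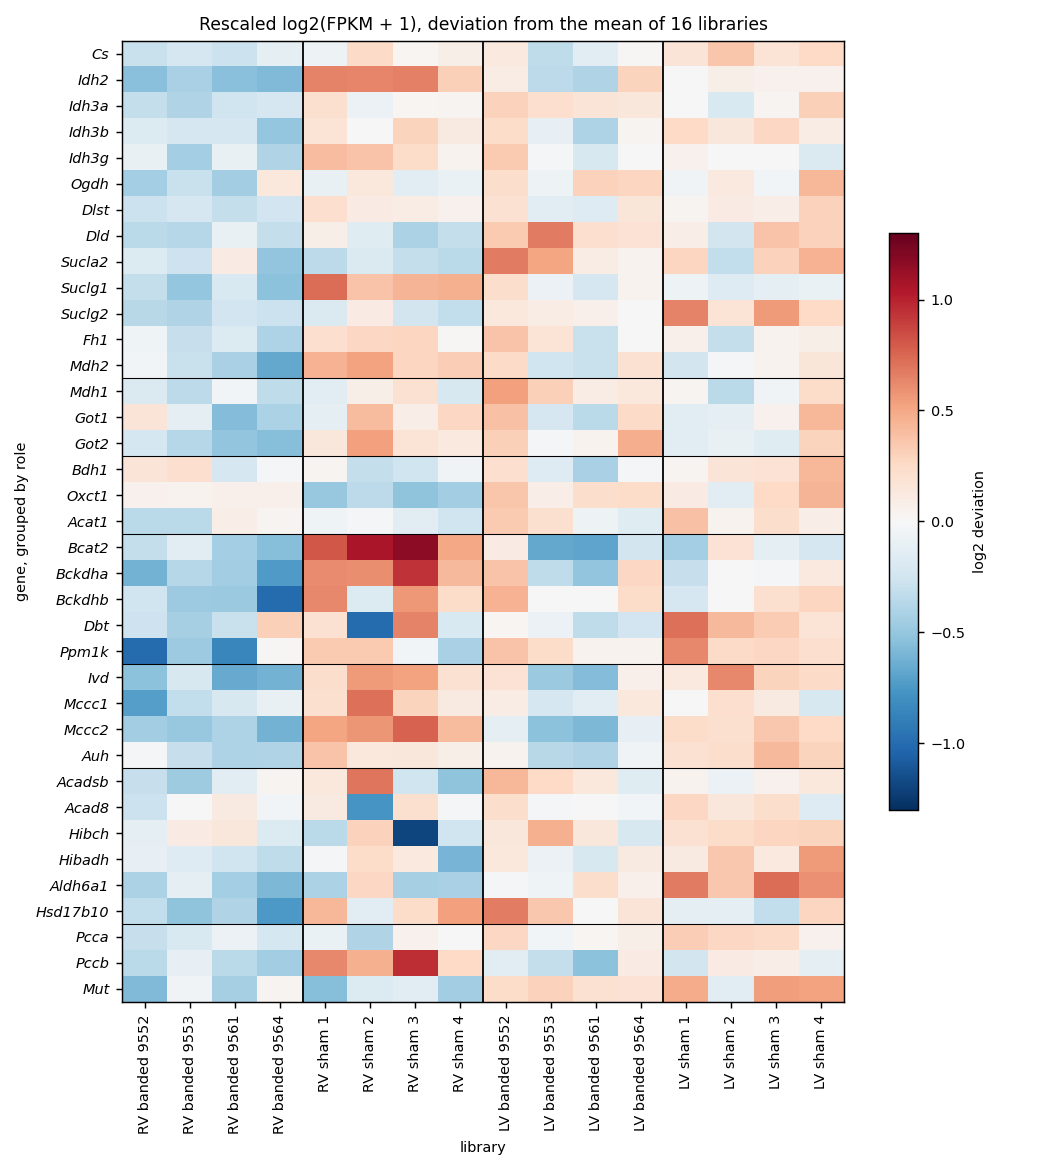
Rescaled log2(FPKM + 1) of the 37 members (rows, grouped by role) in the 16 libraries (columns), as the deviation from the mean of all 16. The 4 sham right ventricular libraries are high and the 4 banded right ventricular libraries low in the rows of Idh2, Suclg1, Bcat2, Bckdha, Mccc2 and Pccb. At Bcat2 the banded left ventricles are about as low (rescaled mean 55.3 FPKM, against 54.4 in the banded right). They are also near the banded right at Mccc2 (24.5 against 21.7) and Pccb (44.2 against 40.8). They lie further above it at Idh2 (874 against 634), Suclg1 (289 against 222) and Bckdha (175 against 120). In the row of Oxct1 the sham right ventricular libraries are low (mean 171 FPKM). The banded right ventricle (243) lies above them and below the banded left (274) and sham left ventricle (265).

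Sham right and left ventricles were compared next, with the same sham right ventricular libraries as in the banding comparison, so the 2 sets of values are not independent. In sham mice 5 of 37 members were higher in the right than in the left ventricle, where 2.55% of all tested genes were higher, and 1 was lower, where 1.33% were lower. Bcat2 stood at 116, 128, 140.2 and 102 FPKM in the right and 49.8, 67.3, 54.8 and 54.5 FPKM in the left sham ventricle, without overlap (1.09 ± 0.18, adjusted p = 0.0106). Bckdha (0.75), Pccb (0.67), Suclg1 (0.67) and Idh2 (0.57) were the others, and all 5 were among the members that fell with banding. Beside the right ventricular values above, left sham libraries held 41.98, 45.9, 46.4 and 42.8 FPKM of Pccb, below all right sham libraries. Aldh6a1, methylmalonate semialdehyde dehydrogenase, stood at 21.1, 31.5, 19.4 and 22.5 FPKM in the right and 46.8, 32.1, 42.9 and 41.5 FPKM in the left sham ventricle, and was lower without overlap (-0.77 ± 0.18, adjusted p = 0.0256). As deposited the sham ventricles did not overlap at 10 members higher in the right (6.40% of all tested genes) and 3 lower (5.04%). Oxct1 was lower in the right sham ventricle on rescaled values only (-0.62, adjusted p = 0.00915, and 0.0715 as deposited). These counts depend on the scaling: rescaled values alone gave 5 higher (3.52% of all tested genes) and 4 lower (5.10%), and quantile normalization 1 higher (2.89%) and 7 lower (4.24%). TPM scaling, with a median of all genes of -0.47, gave 0 higher (0.314%) and 17 lower (24.7%). They also depend on single libraries. The number higher was 1 without right sham 1 or 3 or left sham 1 or 3, 2 without left sham 2 or 4, and 3 without right sham 4 or left banded PS_9553 or PS_9561, and only Bcat2 was kept in all 16 omissions.

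In banded mice 3 of 37 members were lower in the right than in the left ventricle, where 1.39% of all tested genes were lower, and 0 were higher, where 0.182% were higher (limma; 17 lower and 0 higher at an unadjusted p below 0.05, against 8.70% and 2.57% of all tested genes). Got2 stood at 101, 95.2, 113 and 114 FPKM in the right and 211, 161, 176 and 180.1 FPKM in the left banded ventricle (-0.78 ± 0.14, adjusted p = 0.008097). Hsd17b10 stood at 77.2, 69.4, 99.7 and 80.2 FPKM in the right and 219, 170.1, 138 and 118 FPKM in the left ventricle (-0.95 ± 0.22, adjusted p = 0.0264), and neither gene overlapped. Dld stood at 48.4, 49.8, 78.7 and 70.3 FPKM in the right and 113, 137, 104 and 77.00 FPKM in the left ventricle, which overlapped (-0.79 ± 0.21, adjusted p = 0.04997). The count was 0 without any 1 of the 4 right banded libraries or without left banded PS_9552, PS_9553 or PS_9564, and 1 without left banded PS_9561 or left sham 3. Right and left banded libraries did not overlap at 11 members lower in the right (8.16% of all tested genes) and 0 higher (2.43%). Of the 37 members 0 had a difference above 0 as deposited, and 2 when rescaled, where the median of all genes was -0.10 and 0.02. The share of all tested genes above 0 is not given, so these 2 counts are not read as a result about the members. For Bcat2, the gene with the highest sham right over left difference, the banded ventricles stood at -0.15 ± 0.18 (adjusted p = 0.801).

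The members that fell had transcripts of higher GC content and shorter length, by the median, than the members not called. The longest coding transcript of the 10 that fell had a median GC content of 52.8% (50.2 to 57.9%), that of Oxct1 47.7%, and those of the 26 not called a median of 46.9% (39.9 to 52.8%). Across the 37 members, which share the same 8 libraries, the right ventricular difference correlated with GC content at Pearson r = -0.64 (Spearman rho = -0.62). The sham right over left difference, which shares the sham right ventricular libraries, correlated with it at r = 0.74 (rho = 0.71), and the left ventricular banding difference at r = 0.05 (rho = 0.04). The right effect minus the left effect correlated with it at r = -0.59 (rho = -0.55). Median transcript length was 1990 nt in the members that fell and 2700 nt in those not called. With the logarithm of length, Pearson r was 0.39 for the right and -0.30 for the left ventricular difference. It was -0.51 for the sham right over left difference and 0.50 for the difference of effects. The same correlations over all tested genes are not given. The part of GC content and length in the calls was not tested apart from 1 alternative. After rescaling and removal of each library's dependence on GC content and transcript length, 20 members were lower (8.42% of 12013 genes) and 0 higher (7.22%) in the right ventricle, among them all 10 that fell, and the sham comparison gave 3 higher (1.69%) and 0 lower (1.58%).

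**Figure D5:**
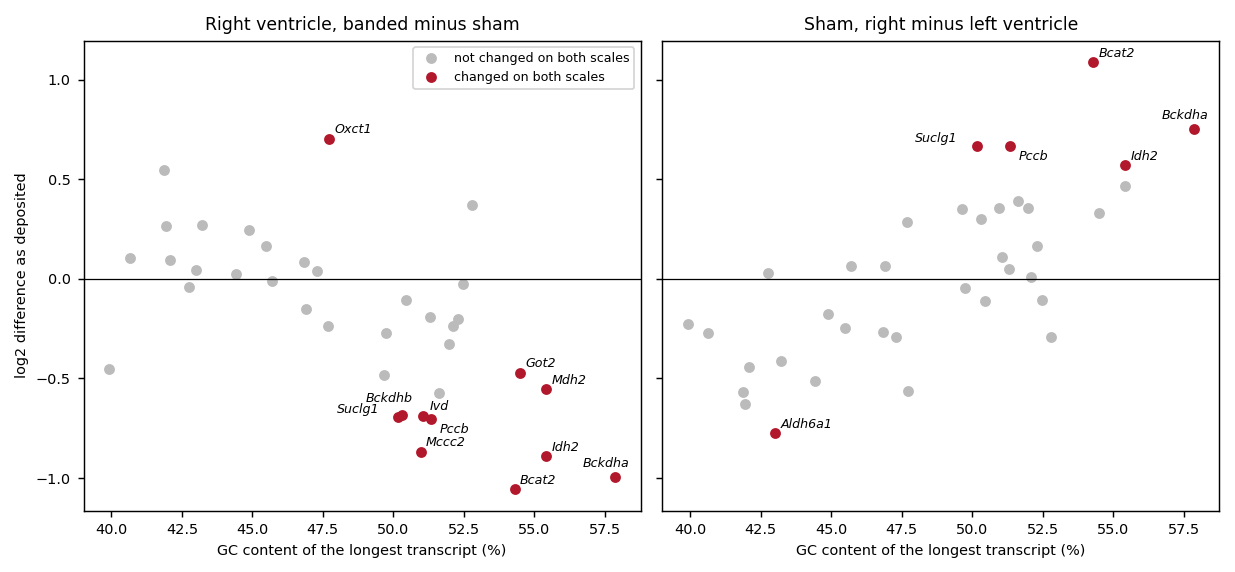
Log2 difference as deposited of each of the 37 members against the GC content of its longest coding transcript in percent, for banded minus sham in the right ventricle (left) and right minus left in sham mice (right). Dark points are members called on both scales; the points run downward with GC content on the left (r = -0.64) and upward on the right (r = 0.74).

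Promoter sequences of the members were examined as a description, and shared regulation was not tested. RefSeq (GRCm38.p6) gave 43 promoters for 33 of the members, and the 200 bases from 250 to 51 before each start were searched on both strands for 3 motifs. Shown are those of Bcat2 (chr7:45569903-45570102, plus strand; the first of 2 starts) and Idh2 (chr7:80115401-80115600, minus strand), which fell, and of Oxct1 (chr15:4026178-4026377, plus strand), which rose, and none of these held a match. Those of Mdh2 (chr5:135778399-135778598, plus strand) and Mccc2 (chr13:100015690-100015889, minus strand), which fell, held 1 match each, in capitals, to the GC box in Mdh2 and to the CCAAT box in Mccc2, where it reads ATTGG on the strand shown.
Bcat2: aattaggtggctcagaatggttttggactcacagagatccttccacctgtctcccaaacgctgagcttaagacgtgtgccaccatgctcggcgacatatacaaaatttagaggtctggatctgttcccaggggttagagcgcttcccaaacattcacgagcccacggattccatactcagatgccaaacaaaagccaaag
Idh2: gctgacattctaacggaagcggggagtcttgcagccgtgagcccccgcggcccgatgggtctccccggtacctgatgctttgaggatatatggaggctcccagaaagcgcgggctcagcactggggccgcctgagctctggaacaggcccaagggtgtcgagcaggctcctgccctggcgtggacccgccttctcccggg
Oxct1: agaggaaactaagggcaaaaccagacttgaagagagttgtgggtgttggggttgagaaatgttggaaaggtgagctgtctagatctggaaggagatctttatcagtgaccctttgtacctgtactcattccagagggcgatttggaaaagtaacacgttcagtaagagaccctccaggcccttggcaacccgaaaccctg
Mdh2: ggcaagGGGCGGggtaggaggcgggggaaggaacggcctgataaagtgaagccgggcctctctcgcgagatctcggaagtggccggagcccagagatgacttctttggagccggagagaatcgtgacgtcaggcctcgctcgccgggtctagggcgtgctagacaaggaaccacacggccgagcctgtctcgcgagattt
Mccc2: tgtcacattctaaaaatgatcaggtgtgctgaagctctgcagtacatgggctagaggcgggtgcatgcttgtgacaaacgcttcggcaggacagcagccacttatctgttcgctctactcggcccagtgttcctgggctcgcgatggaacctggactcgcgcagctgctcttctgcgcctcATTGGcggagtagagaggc

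The oestrogen-related receptor half-site AAGGTCA, a motif known from promoters of energy metabolism genes, was found in 1 of 33 members (Got1) and in 0 of the 10 that fell, against 3.89% of all 27025 genes with a promoter of this length. The GC box GGGCGG was found in 18 of the 33 (54.5%), against 27.2% of all genes. It stood in 2 of the 10 members that fell (Mdh2 and Bckdhb) and in 16 of the 23 others. The CCAAT box was found in 15 of the 33 (45.5%), 3 of the 10 that fell and 12 of the 23 others, against 31.8% of all genes. A gene was counted where any of its promoters held the motif, none of the 3 motifs contains another, and a match is a string of letters, not a bound site.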

How the data were processed

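PolyA RNA of 16 libraries, 4 in each of 4 groups, was sequenced. The authors deposited FPKM for each gene and library; per the submitters' processing notes the tools were FastQC 0.11.5, STAR 2.5.3a, Cufflinks 2.2.1, Cuffdiff and R 3.3.1, with the mouse build mm9. The authors' table of group values was not used.

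The 37 members and all gene lists were chosen with earlier results of these data known. Values were taken as log2(FPKM + 1), and 12100 genes that reached 1 FPKM in 4 libraries or more were kept. In R 4.3.3, limma 3.58.1 (trended prior) fitted 4 group means and gave 5 comparisons, as deposited and divided by median-ratio scale factors; the Benjamini-Hochberg adjustment ran over all 12100 genes, with a threshold of 0.05. The fit was first tested on simulated data. Values are given in every library for members that changed in the right ventricle or differed between ventricles, in the groups compared, and in the right ventricle for Cs, Ogdh, Oxct1, Bdh1, Bcat2, Bckdha, Bckdhb and Ppm1k; others by range, difference or count. Genes named beyond this, Bckdk and Aldh6a1 among them, were chosen after their values were seen, and some results are not reported here.

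Depth was estimated from the steps of FPKM times transcript length over 3583 genes. Lengths and GC content are of the longest coding transcript in GENCODE on GRCm38, matched by symbol for all 37 members; no coordinates were taken across builds. Promoter sequence is from RefSeq on GRCm38.p6, and the GC and CCAAT boxes were searched after the values were seen. Ppm1k, with the lowest level, rests on few fragments in shallow libraries, which limits its precision. Alternatives were other scalings, pseudocounts of 0.1 and 5, a filter at 5 FPKM or none, a correction for length and GC content, library weights, fewer libraries, a replicate block and omission of each library.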

Additional observations from a re-analysis of the deposited data

Results flagged for a closer look

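Of 148 sets of 4 libraries (37 members in 4 groups), 11 held a library far from the other 3, where chance flags about 1 in 20 sets. In the sham right ventricle these were all in library 2: Idh3b at 316 FPKM (others 387 to 399), Mccc1 at 22.9 FPKM (17.3 to 17.5) and Acad8 at 8.96 FPKM (18.5 to 18.9). In the banded left ventricle library PS_9552 stood high for Dlst at 276 FPKM (203 to 213), Bcat2 at 96.3 FPKM (54.1 to 57.8) and Auh at 85.0 FPKM (60.4 to 62.5), and library PS_9564 low for Mut at 25.3 FPKM (33.4 to 34.5). In the sham left ventricle Cs was at 439 FPKM in library 3 (488 to 496), Dbt at 23.1 FPKM (14.6 to 15.98) and Ppm1k at 16.5 FPKM (10.8 to 11.45) in library 1, and Ivd at 140 FPKM in library 2 (113 to 117).

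The effect of banding differed between the ventricles at 6 members, by the interaction term of the limma fit. All 6 were lower in the right, where 3.45% of all tested genes were lower. All 6 calls were lost with TPM scaling and with quantile normalization, where Idh2 stood at -0.19. The right effect minus the left effect was -1.16 at Idh2, -1.20 at Suclg1, -1.11 at Got2, -1.24 at Bcat2, -1.40 at Bckdha and -1.34 at Hsd17b10 on the log2 scale. The limma adjusted p were 0.00338 to 0.0151 as deposited and 0.00608 to 0.0383 rescaled.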

How the results depend on the processing

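Of the 10 members that fell in the right ventricle, 8, and Oxct1, kept their call without any 1 of the 16 libraries. Counts are given as higher and lower. Some have no share of all tested genes beside them. Those show only how a count moves with the processing and are not results about the members. Leaving out 1 library gave 1 to 1 and 8 to 10 in the right ventricle, 0 to 0 and 0 to 0 in the left, 0 to 0 and 5 to 7 for the difference of effects, 1 to 5 and 0 to 3 in sham, and 0 to 0 and 0 to 3 in banded mice. Pseudocounts and filters left all counts within 1.5 times of the main ones, except 5 lower in banded mice with the filter at 5 FPKM. As deposited only, 4 were higher in the left ventricle and 5 lower in banded mice; rescaled only, 18 were lower in the right ventricle, 1 in the left and 4 in sham. TPM scaling gave 8 and 0 in the right ventricle, 0 lower for the difference, 0 and 17 in sham and 0 lower in banded mice, with Got2 at 0.0228 in the right ventricle and Idh2 at -0.0124 in sham; the cause was not tested. Quantile normalization gave 7 lower in the left ventricle (Cs -0.65, Idh3b -0.55, Bdh1 -0.48), 2 and 0 for the difference, 1 and 7 in sham and 0 lower in banded mice. With the length and GC correction the right ventricle had 0 and 20 (Dld -0.45, Suclg2 -0.53), the left 2 lower (Idh3b -0.43), sham 3 and 0, and banded mice 1 lower. Only the libraries of a comparison gave 1 and 0 in sham. Library weights gave 0 higher in the right ventricle, 3 lower for the difference, 2 higher in sham and 11 lower in banded mice. Libraries with an Rn45s value gave 0 and 6 in the right ventricle, 0 lower for the difference, 0 lower in sham and 0 lower in banded mice, with fewer samples.

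Libraries with equal numbers correlated at -0.0964 to 0.160 in their deviations, over 0.1 in 1 of 8 pairs, and 1 correlated best with its own number, so the numbers were not taken as pairs. The replicate block gave 3 higher in sham and moved no other count by over 1.5 times. Low depth of the sham right ventricular libraries limits genes near 10 FPKM, such as Ppm1k and Dbt.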
